A study of Mus musculus with 23 samples.

Results

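Vat1l, Otx2, Igsf23 and Klf14 are 4 mouse genes, of 21264 in the deposited expression table, selected on their measured levels in re-isolated cells: near 0 in the controls and present in both Notch1-modified groups, N1OE and N1KO. The rule gave no numeric limit. Since these levels chose the genes, the contrasts with re-isolated controls are given as a description without a test. The cells derive from iPax3, a mouse embryonic stem cell line in which expression of the transcription factor Pax3 yields muscle progenitors. Bulk RNA was sequenced in 23 libraries. Of these, 7 came from progenitors in culture (4 wild-type controls and 3 N1OE), and 16 from re-isolated donor cells, labelled as satellite cells, which are the resident stem cells of muscle (9 wild-type controls, 4 N1OE and 3 N1KO). N1OE stands for overexpression of NICD1, the part of the receptor Notch1 that acts in the nucleus, and N1KO for a knockout of Notch1. All groups share the iPax3 line, and no cultured N1KO library was analysed here. Whether an edited line is 1 clone, whether animals were pooled, the host and the time after transplantation are not given in the sources used here. Cultured and re-isolated cells were extracted and made into libraries with different kits, so setting and kit cannot be told apart.

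The cells had the markers of their label in part. Pax7, the transcription factor that defines satellite cells, lay between 11.5 and 112.6 CPM (the unit of the table, in which reads of a gene are divided by all reads of the library in the listed genes and scaled to a common total) in the re-isolated controls, 91.8 to 154 in N1OE and 19.9 to 153 in N1KO. In culture Pax7 did not exceed 0.891 CPM in any of the 7 libraries. Notch1 itself was measured at 15.6 to 52.6 CPM in N1KO and 14.9 to 174 CPM in the re-isolated controls, ranges that overlap. Which part of Notch1 was deleted is not given in the sources used here, and reads from other exons would still count. In N1OE, where reads of the NICD1 transgene cannot be told apart from those of the gene, it stood at 98.1 to 257 CPM. Summed over the listed genes, depth was 11637817 to 29154176 reads a library, and 1 read stands for 0.0343 to 0.0859 CPM.

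The 4 genes belong to unrelated families. When a ligand binds Notch1, the receptor is cut, and its intracellular domain joins the DNA-binding protein RBPJ in the nucleus and turns on genes such as those of the Hes and Hey families. In skeletal muscle this pathway is known for holding satellite cells in quiescence. Otx2 is a homeobox transcription factor best known for building the forebrain, midbrain and eye, and it is also expressed in the early embryo as cells leave pluripotency. Klf14 is an intronless Krüppel-like factor, a zinc finger transcription factor, which lies near the imprinted gene Mest and is expressed from the maternal allele. Vat1l encodes a protein related to the vesicle amine transport protein Vat1 and to quinone oxidoreductases. Igsf23 encodes a membrane protein of the immunoglobulin superfamily.

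In the annotation of the mm10 build, Vat1l lies on the forward strand at chr8:114205612-114374071 and Otx2 on the reverse strand at chr14:48657677-48673819. Igsf23 lies on the reverse strand at chr7:19937305-19950756 and Klf14, with 1 exon, on the reverse strand at chr6:30956023-30959078. All are annotated as protein-coding. A long noncoding RNA opposite to Otx2 (Otx2os1), an antisense RNA over Vat1l (4933408N05Rik), a processed pseudogene inside Igsf23 (Gm44651) and an unclassified transcript inside Otx2 (Gm49154) overlap them and have no row in the table. How the counting treated strand is not given in the sources used here, so reads of such partners cannot be told apart from those of the genes.

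Promoter windows, from 250 bases before to 50 after an annotated start, were taken from RefSeq (GRCm38.p6) and show which letters the starts of these jointly detected genes have in common. There was 1 window for Vat1l, 4 for Otx2 and 2 for Igsf23; Klf14 had no entry. Shown are the window of Vat1l (chr8:114205390-114205689, forward strand), the window of Otx2 that holds the same motif (chr14:48665060-48665359, reverse strand) and the window of Igsf23 at its annotated gene start (chr7:19950694-19950993, reverse strand). Each is written 5′ to 3′ on the strand of the gene, and capitals mark the letters TAATCC, the core bound by Otx-type homeobox proteins, read on either strand.
Vat1l: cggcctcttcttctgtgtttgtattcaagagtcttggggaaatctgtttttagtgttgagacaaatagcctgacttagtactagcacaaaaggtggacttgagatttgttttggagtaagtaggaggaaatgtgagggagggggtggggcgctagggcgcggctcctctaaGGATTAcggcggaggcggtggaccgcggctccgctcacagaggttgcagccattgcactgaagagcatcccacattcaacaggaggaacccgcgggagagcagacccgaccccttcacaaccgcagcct
Otx2: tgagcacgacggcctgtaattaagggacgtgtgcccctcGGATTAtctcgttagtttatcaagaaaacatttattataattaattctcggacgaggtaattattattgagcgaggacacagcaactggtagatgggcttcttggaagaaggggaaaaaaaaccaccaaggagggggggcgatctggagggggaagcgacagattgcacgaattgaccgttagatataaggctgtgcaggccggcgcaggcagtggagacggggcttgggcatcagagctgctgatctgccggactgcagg
Igsf23: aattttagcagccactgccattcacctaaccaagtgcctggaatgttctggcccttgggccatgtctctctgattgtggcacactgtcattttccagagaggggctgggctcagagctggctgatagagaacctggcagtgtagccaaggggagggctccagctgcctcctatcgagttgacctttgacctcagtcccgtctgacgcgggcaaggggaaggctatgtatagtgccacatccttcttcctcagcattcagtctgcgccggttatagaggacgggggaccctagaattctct
The motif stood once in the Vat1l window, at -79 from the start, and once in this Otx2 window, at -211, both times as GGATTA. It was in 7.06% of 32817 promoter windows of that length, and in none of the other 5 windows of Otx2 and Igsf23. The Otx2 window was picked for display because it held this motif. The RBPJ core TGGGAA, searched on both strands, matched none of the 7 windows, while 25.6% of all windows held it. The E-box CANNTG (N is any base), in 72.3% of all windows, was in windows of Otx2 and Igsf23 and not in that of Vat1l. The TATA box TATAAA (13.6%) was in an Otx2 window not shown, and the GC box GGGCGG (35.6%) in none of the 7. GC content was 54.3% in the Vat1l window, 51% in this Otx2 window and 55% in the Igsf23 window shown, beside a median of 52.7%. The CpG counts of these 3 were 14, 16 and 7, beside a median of 7, and those of the other 4 windows were 6, 8, 11 and 2. A match of letters is a description of the window and not evidence of a bound site, and a missing match says nothing of more distant sequence.

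Vat1l had the widest range of the 4 genes. In the re-isolated controls 5 of the 9 libraries held 0 reads, replicates 7, 8 and 9 held 1 read each, and replicate 6 held 27 reads, or 1.63 CPM. In re-isolated N1OE the libraries stood at 114, 273, 51.4 and 99.8 CPM. In N1KO they stood at 22.9, 46.1 and 66.2 CPM. All 7 modified libraries lay above all 9 controls, and the ranges of N1OE and N1KO overlapped between 51.4 and 66.2 CPM. Over summed reads, Vat1l was 869-fold higher in N1OE than in controls (95% counting interval 608 to 1288) and 282-fold higher in N1KO (197 to 418). Counting intervals take the reads recovered from the table as raw, and cover counting error only and not the spread between libraries. Without control replicate 6, whose share is set out further on, only 3 control reads were left and the ratios became 7911 and 2565. As these are bulk samples, fewer cells of a type and less RNA per cell cannot be told apart.

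The cultured cells expressed Vat1l too, with the higher mean in the controls. The 4 cultured controls stood at 26.2, 104, 104 and 18.8 CPM, and the 3 cultured N1OE libraries at 13.9, 25.2 and 27.4 CPM. Controls 2 and 3 lay far above all other cultured libraries, while controls 1 and 4 were within or close to the N1OE range. The cultured controls had 388-fold more Vat1l CPM over summed reads than the re-isolated controls (interval 272 to 576; 3538 without control replicate 6), across a change of kit. By group median the order was re-isolated N1OE (107 CPM), cultured control (65.0), N1KO (46.1), cultured N1OE (25.2) and re-isolated control (0). Each of the first 3 steps in this order joined groups whose ranges overlap, and only the last step did not.

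Otx2 followed the same order among re-isolated groups at a lower level. Of the 9 controls, 5 held 0 reads, replicates 8 and 9 held 1 read, replicate 3 held 2 reads, and replicate 6 held 77 reads or 4.64 CPM. N1OE libraries stood at 7.92, 49.7, 38.5 and 62.9 CPM, and N1KO libraries at 14.4, 20.5 and 21.9 CPM. N1OE replicate 1 was the lowest of the modified libraries and the nearest to control replicate 6; the other 3 N1OE libraries lay above all N1KO libraries. Read ratios to the controls were 82.6 for N1OE (66.2 to 104) and 43.7 for N1KO (34.8 to 55.4). Of the 81 control reads, 77 came from replicate 6, and without it the ratios were 1523 and 805.

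In culture Otx2 was low in all libraries. The controls stood at 5.38, 3.47, 4.27 and 2.44 CPM and N1OE at 3.91, 6.42 and 6.40 CPM, so that the groups overlapped. Cultured controls had 9.23-fold more Otx2 CPM over summed reads than re-isolated controls (7.20 to 11.95), and 170-fold more (65.8 to 629) once control replicate 6 was left out. Re-isolated N1OE had 6.53-fold more than cultured N1OE (5.80 to 7.37). The group medians ran from 44.1 CPM in re-isolated N1OE through 20.5 in N1KO, 6.40 in cultured N1OE and 3.87 in cultured controls to 0 in re-isolated controls. Between neighbours in that order the ranges overlapped for N1OE and N1KO, for the pair of cultured groups, and, through replicate 6, for cultured and re-isolated controls.

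Igsf23 was the member with the most reads in other controls than replicate 6. In control order the 9 libraries held 4, 0, 1, 15, 3, 31, 0, 1 and 24 reads, which put replicate 6 at 1.87 CPM, replicate 9 at 1.26 CPM and replicate 4 at 0.670 CPM. N1OE libraries stood at 12.4, 8.30, 16.2 and 34.8 CPM and N1KO libraries at 24.3, 16.5 and 20.6 CPM. The N1KO values all lay inside the N1OE range, and the lowest modified library was 8.30 CPM. The read ratios were 41.0 in N1OE (32.6 to 52.1) and 48.1 in N1KO (38.3 to 61.3), and 61.4 and 72.2 without replicate 6. Only for this gene was the N1KO ratio the higher of the pair.

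Cultured Igsf23 was close to the limit of what was tested. The controls stood at 0.505, 1.57, 1.49 and 0.357 CPM, and N1OE at 2.97, 3.398 and 1.62 CPM. Every N1OE library lay above every control, though the nearest values, 1.62 and 1.57 CPM, rest on 32 and 24 reads. The share of all genes separated in this way was not computed, so nothing is drawn from the separation. Cultured controls had 2.28-fold more Igsf23 CPM over summed reads than re-isolated controls (1.64 to 3.18). The group medians were 20.6 CPM in N1KO, 14.3 in re-isolated N1OE, 2.97 in cultured N1OE, 0.995 in cultured controls and 0.138 in re-isolated controls, and the ranges overlapped for N1KO and re-isolated N1OE and for the pair of control groups.

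Klf14 was the only member nearly without reads in culture as well. The cultured controls held 14, 1, 1 and 3 reads (0.643, 0.0655, 0.0464 and 0.178 CPM) and cultured N1OE held 7, 8 and 6 reads (0.347, 0.503 and 0.305 CPM). In the re-isolated controls 4 libraries held 0 reads, replicates 2, 7, 8 and 9 held 1 read, and replicate 6 held 21 reads or 1.27 CPM. N1OE libraries stood at 15.8, 3.15, 15.0 and 36.7 CPM and N1KO libraries at 2.81, 5.01 and 4.08 CPM. N1OE replicate 2 lay within the N1KO range, and the other 3 N1OE libraries lay above it. The read ratios to the controls were 131 in N1OE (88.7 to 204) and 29.6 in N1KO (19.5 to 46.8), and 748 and 169 without replicate 6.

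Klf14 also had the largest ratio of the 4 between re-isolated and cultured N1OE. Re-isolated N1OE had 46.9-fold more Klf14 CPM over summed reads than cultured N1OE (30.6 to 76.0), beside 6.41 for Vat1l, 6.53 for Otx2 and 6.64 for Igsf23. The 2 control groups differed by a ratio of 1.88 with an interval that includes 1 (0.977 to 3.55), on 19 and 25 reads. Without control replicate 6 this ratio was 10.7 (3.55 to 43.2), and it was 8.88 (2.61 to 46.8) against the 5 controls marked GoF in their column headers and 0.922 (0.472 to 1.78) against the other 4. Group medians were 15.4 CPM in re-isolated N1OE, 4.08 in N1KO, 0.347 in cultured N1OE, 0.122 in cultured controls and 0.0491 in re-isolated controls, and the ranges of N1KO and cultured N1OE were the only neighbouring pair that did not overlap.

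**Figure D1:**
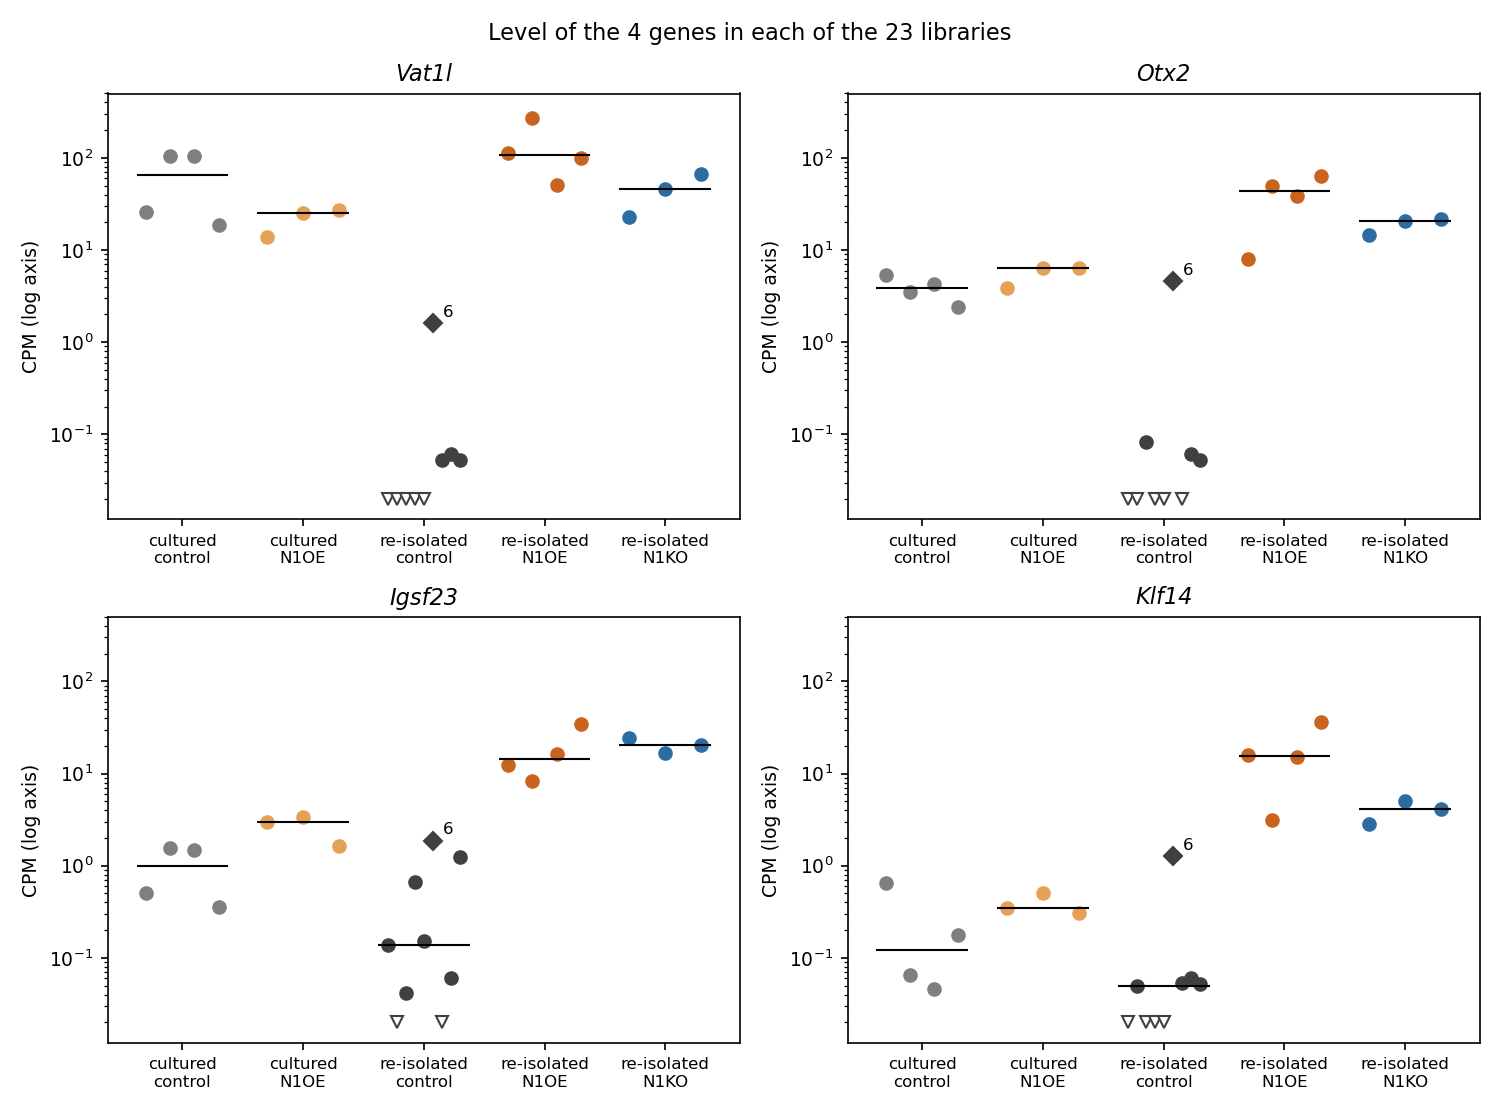
Level of each gene in CPM on a log axis, 1 point per library and a line at the group median where it is above 0; open triangles at the foot of the axis are libraries with 0 reads, and the diamond marked 6 is re-isolated control replicate 6. That diamond is the highest control in all 4 panels, at 1.63, 4.64, 1.87 and 1.27 CPM, and lies below every re-isolated N1OE and N1KO library.

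Across the whole table, every modified re-isolated library lay above every re-isolated control for 35 of 21264 genes, or 0.165%. The 4 members are among them, which the way they were chosen largely fixed. Read with explicit limits (a mean under 0.5 CPM in the controls and at least 1 CPM in each modified library), the rule found 7 genes. Vat1l, Igsf23 and Klf14 met it, with control means of 0.199, 0.466 and 0.164 CPM and lowest modified libraries of 22.9, 8.30 and 2.81 CPM. Otx2 fell just outside, since its control mean was 0.537 CPM, which becomes 0.0246 CPM without replicate 6. The 4 further genes had lower floors, at 1.69 CPM for the carboxylesterase gene Ces2e, 1.35 for the synaptotagmin gene Syt6, 1.07 for the Rab GTPase-activating protein gene Tbc1d30 and 1.03 for the sodium channel gene Scn2a.

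Control replicate 6 gave the highest control value for each of the 4 members and for 5 of the 7 genes of that explicit reading. These 5 were the members Vat1l, Igsf23 and Klf14, and beside them Syt6 and Tbc1d30. The members and the genes of that reading were chosen on their control values, so the following share is not a like background. Over 11117 genes with at least 1 CPM in every modified library, and no limit in controls, replicate 6 was the highest control for 8.48%. Its members' levels came to 3.61% of the N1KO mean for Vat1l, 24.5% for Otx2, 9.13% for Igsf23 and 31.9% for Klf14, and to 1.21%, 11.7%, 10.4% and 7.17% of the N1OE mean. The marker sums of this library lay inside the range of the other 8 controls for satellite cell, neuronal, endothelial, fibro-adipogenic, macrophage and Schwann cell markers, and its pluripotency sum of 1.27 CPM was the highest of the controls. Whether these values bear on its level of the 4 genes was not tested.

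The low control values also differed in kind between libraries. Of the 36 values (4 genes in 9 controls) 16 were 0 reads, 11 were 1 read, and 9 were more. In the column headers 5 controls (replicates 1, 4, 7, 8 and 9) carry the suffix GoF, which the labels do not explain, and 9 of the 11 single reads were in these. Over all genes, those with 1 read outnumbered those with 2 reads by 4.17 to 5.91 times in the marked controls and by 1.08 to 1.502 times in the other 4. For the re-isolated N1OE libraries this ratio was 4.18 to 6.82, and for N1KO 1.25 to 1.40. The part of these single reads in the ratios was not tested. Against the marked controls alone the N1OE ratios were 4932 for Vat1l (on 3 control reads, interval 1687 to 23918), 1899 for Otx2 (on 2 reads, 525 to 15689), 41.8 for Igsf23 and 622 for Klf14 (on 3 reads, 212 to 3019). Against the unmarked controls, which include replicate 6, they were 417, 36.6, 40.0 and 64.6. For N1KO, in the same gene order, the ratios were 1599, 1004, 49.1 and 140 against the marked controls, on those same reads, and 135, 19.4, 47.0 and 14.5 against the unmarked ones. Cultured controls over marked re-isolated controls gave 2206 for Vat1l, 212 for Otx2 and 2.33 for Igsf23, and over unmarked ones 187, 4.09 and 2.23.

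The members ranked the modified libraries differently. Within re-isolated N1OE the highest library exceeded the lowest by 5.30 times for Vat1l, 7.94 for Otx2, 4.19 for Igsf23 and 11.7 for Klf14, and within N1KO by 2.89, 1.52, 1.47 and 1.78 times. N1OE replicate 2 was the highest library for Vat1l and the lowest for Igsf23 and Klf14, replicate 1 was the lowest for Otx2, and replicate 4 was the highest for Otx2, Igsf23 and Klf14. Over all 23 libraries Pearson's r of the log2 values was 0.72 to 0.95 between pairs of members, and it was -0.58 to 0.38 over the 7 modified re-isolated libraries. The group differences that chose the genes enter the first range, and the libraries of a setting share a kit.

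Compared per kilobase of annotated exon, Vat1l was the most abundant of the 4 in N1OE and in both cultured groups, and Igsf23 had the highest mean in N1KO. The means in re-isolated N1OE were 24.6 ± 17.6 CPM per kilobase for Vat1l, 9.42 ± 5.56 for Otx2, 7.92 ± 5.17 for Igsf23 and 5.77 ± 4.56 for Klf14 (SD, n = 4). In N1KO they were 8.25 ± 3.97, 4.49 ± 0.939, 9.04 ± 1.72 and 1.298 ± 0.361 (SD, n = 3). Igsf23 and Vat1l in N1KO lay within each other's spread, and so did Otx2, Igsf23 and Klf14 in N1OE. In cultured controls Vat1l, at 11.6 ± 8.64 CPM per kilobase (SD, n = 4), stood far above Otx2 (0.921), Igsf23 (0.433) and Klf14 (0.0764).

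**Figure D2:**
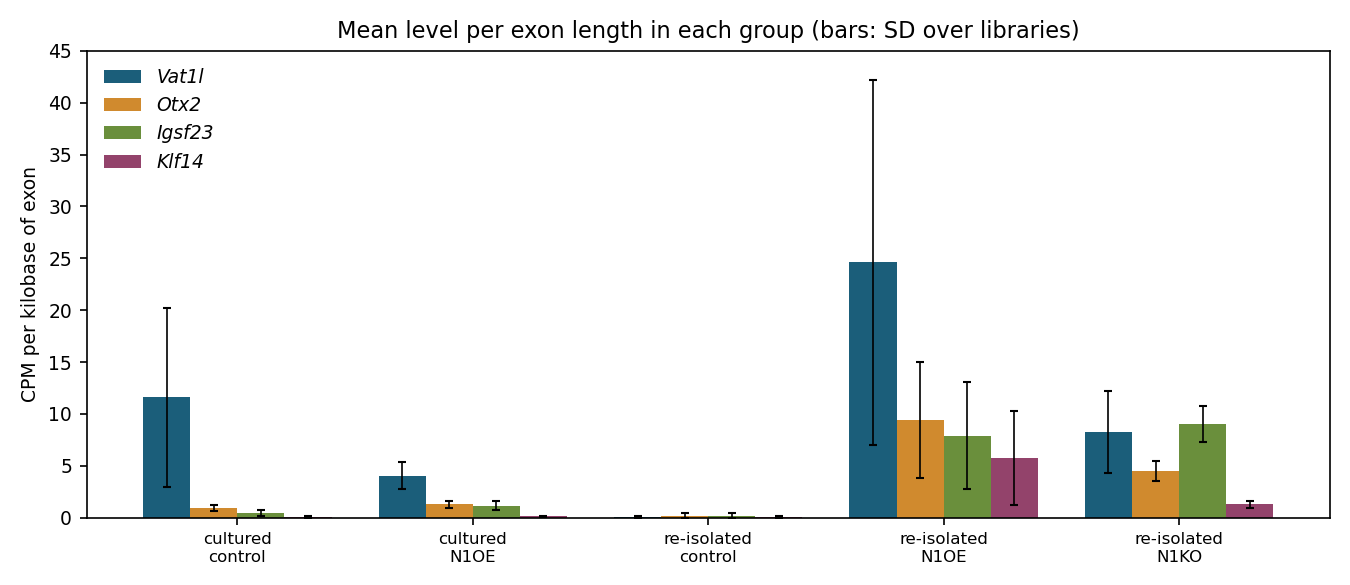
Mean CPM per kilobase of exon for each gene in each of the 5 groups, with bars for the SD over libraries (cut at 0 at the lower end). Vat1l stands highest in cultured controls and re-isolated N1OE, Igsf23 reaches the height of Vat1l in N1KO, and all 4 are near the baseline in re-isolated controls.

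The cultured libraries did not enter the choice of the genes and could be tested. For N1OE against control in culture, limma was fitted to all 7 libraries and 12314 genes that reached 1 CPM in 3 or more of them; 3 of the 4 members passed that filter. None of the 3 passed the threshold (Benjamini-Hochberg adjusted p under 0.05, two-sided), where 10.8% of all genes did, 4.73% higher and 6.03% lower in N1OE. At an unadjusted p under 0.05, 1 of the 3 did, and limma-voom on the recovered reads called 0. The log2 fold change of Vat1l was -1.18 ± 0.68 (SE; 95% interval -2.77 to 0.41, adjusted p = 0.265 with limma). With array weights it was -1.50 (limma adjusted p = 0.0388), and with replicate number as a block it was -1.63 (limma adjusted p = 0.0231). Over its 15 alternatives the adjusted p ran from 0.0231 to 0.525. Otx2 differed by 0.54 ± 0.33 (interval -0.24 to 1.31, adjusted p = 0.298 with limma). Igsf23, which passed the filter only with its N1OE libraries counted, was higher in N1OE by 1.58 ± 0.60 (interval 0.17 to 2.99, unadjusted p = 0.0332, adjusted p = 0.124 with limma). It failed the correction under each of 15 alternatives, with adjusted p from 0.102 to 0.369. Klf14 was under the filter, and its mean log2 value differed by 1.03 between 3 N1OE and 4 control libraries (exact permutation test, two-sided, p = 0.286, where 0.0571 is the smallest p the design allows). Nothing in the labels says that replicates are separate cultures or animals, and p-values here reflect the spread of these libraries alone, which may be technical. All 4 cultured controls and N1OE replicate 1 carry the suffix GoF in their column headers, and N1OE replicates 2 and 3 do not. The N1OE difference in culture can therefore be told apart from this unexplained suffix only in part.

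The difference between re-isolated N1OE and N1KO is given as a description without a test. Over all genes, those with 1 read outnumbered those with 2 by 4.18 to 6.82 times in N1OE and 1.25 to 1.40 times in N1KO. In any comparison of these 2 groups, modification and this trait of the libraries cannot be told apart. The 4 members had to be present in both groups, so the choice bears on how far these can differ. All 4 entered the fit of 14155 genes through the modified groups. In that fit, which the 3 re-isolated groups shared, the log2 difference of N1OE minus N1KO was 1.45 ± 0.98 for Vat1l (SE; 95% interval -0.60 to 3.49) and 1.72 ± 1.07 for Klf14 (interval -0.49 to 3.94). It was 0.74 ± 1.21 for Otx2 (interval -1.78 to 3.27) and -0.38 ± 1.09 for Igsf23 (interval -2.66 to 1.90). All 4 intervals include 0 and are wide, so they do not show that both groups had the same level. The SE takes in the spread of the controls, and without control replicate 6 it was 0.68 for Vat1l and 0.88 for Klf14. In a fit of the 2 groups alone it was 0.49 for Vat1l, 0.54 for Otx2, 0.48 for Igsf23 and 0.63 for Klf14. For Vat1l and Klf14 whether the interval includes 0 depends on which of these fits is taken, so no interval of N1OE against N1KO is read here as a test. Those of Otx2 and Igsf23 included 0 in both fits.

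**Figure D3:**
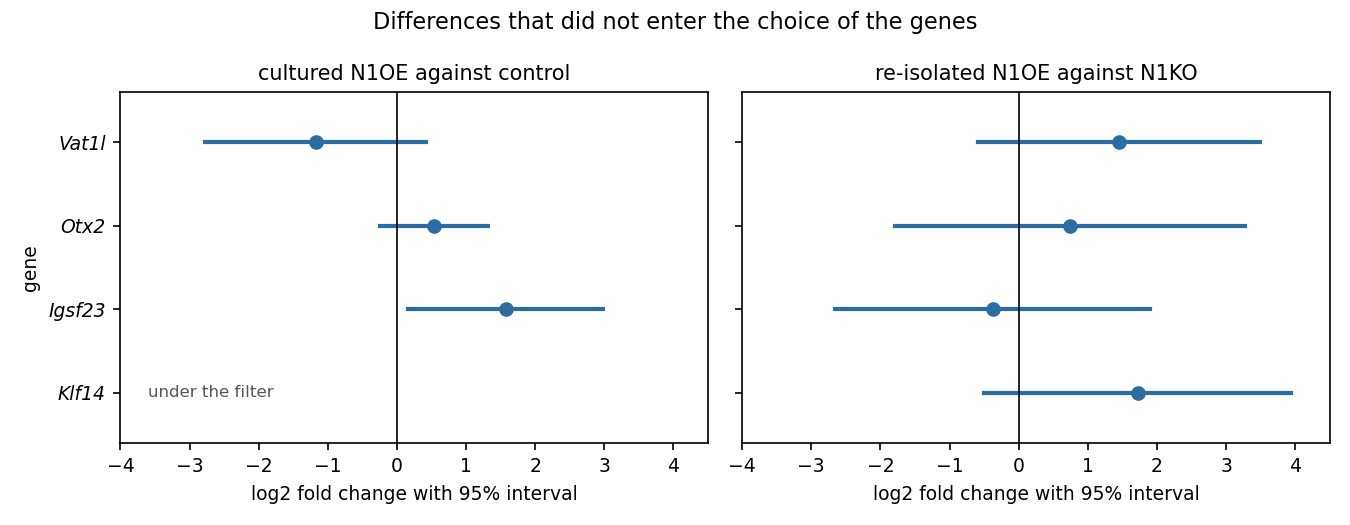
Log2 fold change with its 95% interval (limma) for cultured N1OE against control and for re-isolated N1OE against N1KO; Klf14 in culture was under the filter. The interval of Igsf23 in culture, 0.17 to 2.99, is the only one shown that does not cross 0, and its adjusted p was 0.124. Igsf23 passed the filter there only with its N1OE libraries counted. The re-isolated differences carry no test.

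None of the tested neighbours of the 4 genes was called higher in N1OE or N1KO than in control, by limma with all 9 controls. These controls mix marked and unmarked libraries, which differ in single reads. Over all genes, N1OE against control had 1000 calls with all controls, 1627 with marked and 2691 with unmarked ones. N1KO against control had 93, 544 and 1008. Few or 0 calls for the neighbours, families and markers below thus do not show unchanged levels. The 3 nearest genes with a row on each side made 24 neighbours, of which 14 were tested. In re-isolated N1OE against control 0 of the 14 were higher and 1 lower, where 7.06% of all genes were called (3.78% higher and 3.29% lower). In N1KO against control 0 of the 14 were called in either direction, where 0.657% of all genes were (0.466% higher and 0.191% lower); 3 had an unadjusted p under 0.05, and limma-voom called 0. The gene that fell was Peli2, an E3 ubiquitin ligase gene of innate immune signalling at 376 kilobases from Otx2. It stood at 4.17 to 12.5 CPM in controls (median 5.85), 0.207 to 2.84 in N1OE and 6.63 to 10.1 in N1KO, with a log2 fold change of -2.93 ± 0.51 in N1OE against control (limma, adjusted p = 0.00128) and -3.10 ± 0.65 in N1OE against N1KO (adjusted p = 0.00516). In N1OE against N1KO 2 neighbours were called lower and 0 higher, where 7.35% of all genes were called (2.92% higher and 4.43% lower). Maf, at 1309 kilobases from Vat1l, was called together with Peli2 (-1.86 ± 0.55, limma adjusted p = 0.0440). Its call was lost without any 1 of the 7 modified libraries (0.0590 to 0.212) or without control replicate 9 (0.0545). Ceacam19, next but one to Igsf23, was too low to be tested and reached 20.6 CPM in 1 N1OE library (median 2.02, at most 0.410 in controls).

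In culture 3 of the 14 neighbours were lower in N1OE and 0 higher, beside 6.03% lower and 4.73% higher over all genes tested. Maf, a leucine zipper transcription factor gene at 1309 kilobases from Vat1l, fell from 39.5 ± 6.12 CPM (SD, n = 4) to 21.1 ± 1.82 (SD, n = 3). Its log2 fold change was -0.89 ± 0.15 (limma, adjusted p = 0.0171). Without N1OE replicate 1, 2 or 3 its adjusted p was 0.0528, 0.0960 and 0.0926. Pvr, the poliovirus receptor gene at 16.1 kilobases from Igsf23, fell by 0.88 ± 0.17 on the log2 scale (adjusted p = 0.0246) but its adjusted p was 0.0667 with control replicate 2 left out, and 0.0934, 0.118 and 0.0865 with each N1OE library left out in turn. The third was Nudt7, a peroxisomal nucleotide hydrolase gene at 50.9 kilobases from Vat1l, at -1.02 ± 0.23 (adjusted p = 0.0368). Leaving out control replicate 1, 2 or 3 gave 0.0633, 0.0709 and 0.0648, and leaving out each N1OE library in turn gave 0.114, 0.144 and 0.0801.

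Few of the genes that work beside Otx2 in the anterior ectoderm and eye were high enough to be tested. A list of 32, such as Crx, Six3, Lhx1 and Pax6, summed to 8.91 to 43.6 CPM in re-isolated controls, 26.7 to 53.6 in N1OE and 19.3 to 55.2 in N1KO. Of these 7 were tested among re-isolated cells, with 1 higher and 0 lower in N1OE against control (median log2 fold change 1.21, beside 0.06 over all genes tested) and 0 called in N1KO against control (0.08, beside 0.01) or in N1OE against N1KO (1.59, beside 0.07). In each of the last 2 comparisons 1 gene had an unadjusted p under 0.05 and limma-voom called 0. Over all genes tested, 3.78% were called higher and 3.29% lower in N1OE against control. Calls in either direction came to 0.657% in N1KO against control and 7.35% in N1OE against N1KO. The 1 called gene was En1, a homeobox gene of the midbrain and of limb and dermal cells, at 14.2 CPM in N1OE and 5.22 in controls on average (log2 fold change 1.68 ± 0.48, limma adjusted p = 0.0378). Its call was lost in 7 of the leave-one-out fits, those without N1OE replicate 1, 2, 3 or 4 (0.0908, 0.117, 0.0794 and 0.0664) and without control replicate 7, 8 or 9 (0.0548, 0.0506 and 0.0595). At 0 reads in every library of a group were 4 of the list in the 9 re-isolated controls, 11 in the 4 N1OE (Crx, Hesx1, Six3, Six6 and Rpe65 among them), 10 in the 3 N1KO and 10 in the 4 cultured controls. In culture 3 of the list were tested, where 6.03% of all genes were called lower in N1OE. Fgf5, a growth factor gene of the epiblast, was lower in N1OE, at 0.0504 CPM beside 3.81 in controls (log2 fold change -5.10 ± 0.64, limma adjusted p = 0.00685). No N1OE library reached 1 CPM of Fgf5, so it entered the fit through the controls only.

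Calls among the other members of the Krüppel-like factor family were few. Of 16 relatives 15 were tested among re-isolated cells. In N1OE against control 1 was higher and 1 lower (median log2 fold change -0.06), where 3.78% of all genes were higher and 3.29% lower. In N1KO against control 1 was higher and 0 lower (0.31), where 0.466% were higher and 0.191% lower. In N1OE against N1KO 0 were higher and 2 lower (-0.69), where 2.92% were higher and 4.43% lower. Single calls in a list of this size say nothing of the family. Klf1, the erythroid family member, was the one higher in N1OE, at a mean of 4.36 CPM beside 0.0929 in controls (log2 fold change 4.42 ± 1.24, limma adjusted p = 0.0336, and 0.0504 without control replicate 9). No control reached 1 CPM of Klf1, so it entered the fit through modified libraries only. Klf2, a factor of endothelial cells and lymphocytes, stood at 389.8 CPM in N1KO, 83.7 in controls and 81.7 in N1OE on average. Its log2 difference of N1OE minus N1KO was -2.21 ± 0.53 (limma adjusted p = 0.0145; 0.0501 without N1OE replicate 4 and 0.118 without N1KO replicate 2). Against control it was higher in N1KO by 2.13 ± 0.47 (adjusted p = 0.0386; 0.367 without N1KO replicate 2, and 0.0526 to 0.062 without N1KO replicate 1 or 3, N1OE replicate 1 or 3 or control replicate 2, 5 or 7). Klf5, a factor of epithelial and smooth muscle cells, was the one lower in N1OE against control (-1.60 ± 0.42, adjusted p = 0.0254; 0.0642 without N1OE replicate 2 and 0.119 without replicate 4). Klf4, one of the reprogramming factors, was the other one lower in N1OE against N1KO (-1.57 ± 0.46, adjusted p = 0.0408), and was lost without N1KO replicate 2 or 3, N1OE replicate 1, 3 or 4 or control replicate 9 (0.0501 to 0.214). In culture 0 of 14 relatives were higher and 3 lower (Klf3, Klf5 and Klf15, adjusted p = 0.0410, 0.0488 and 0.0460), beside 6.03% lower over all genes. Each of these was lost without any 1 of the N1OE libraries and without 2 or 3 of the controls (replicates 2 and 3 for Klf3, 2, 3 and 4 for Klf5, 1, 2 and 3 for Klf15), at 0.0516 to 0.164, and limma-voom called 0 of the 14.

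Around Klf14 on chromosome 6, none of 7 tested genes of the Mest cluster was called in any of the 4 comparisons by limma, with median log2 fold changes of -0.28 in N1OE against control and -0.08 in N1KO against control. Over all genes tested 10.8% were called in culture, 7.06% in N1OE against control, 0.657% in N1KO against control and 7.35% in N1OE against N1KO. Mest, the paternally expressed gene of the cluster, stood at 286 to 4705 CPM in re-isolated controls, 346 to 666 in N1OE and 553 to 1140 in N1KO. Its log2 fold change in N1OE against control was -1.15 ± 0.62 (adjusted p = 0.282). In that comparison and in culture 1 gene of the cluster had an unadjusted p under 0.05, in the other 2 comparisons 0 had, and limma-voom called 0 in each. Of the Vat1 relatives and quinone oxidoreductases 10 were tested, with 0 called among re-isolated cells. In culture, where 4.73% of all genes were called higher, 1 was higher in N1OE. That was Zadh2, a prostaglandin reductase gene, at 80.9 CPM beside 45.3 (log2 fold change 0.86 ± 0.18, limma adjusted p = 0.0287; 0.0926, 0.126 and 0.125 without N1OE replicate 1, 2 and 3). Vat1 itself stood at 51.6 CPM in N1OE, 115.5 in N1KO and 69.97 in re-isolated controls on average, and none of these differences passed. Over the family, 0 to 2 genes a re-isolated comparison had an unadjusted p under 0.05, and limma-voom called 0. Of the Igsf and Ceacam genes 12 were tested among re-isolated cells and 0 were called in any of the 3 comparisons by limma or limma-voom, with 1 or 2 at an unadjusted p under 0.05, and in culture 8 were tested with 0 higher and 1 lower (Pvr).

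Cell type markers were read beside these values. Over all genes tested, 3.78% were called higher and 3.29% lower in N1OE against control. In N1KO against control 0.466% were called higher and 0.191% lower. Neuronal markers, a list of 11, summed to 32.2 to 161 CPM in re-isolated controls, 46.6 to 87.5 in N1OE and 22.2 to 56.1 in N1KO, with Snap25 at no more than 0.0691, 0 and 0.537 CPM. In N1OE against control 2 of 7 tested were called lower by limma, Tubb3 (-2.13 ± 0.52, adjusted p = 0.0169; 0.0818 without N1OE replicate 2 and 0.0771 without replicate 4) and Gap43 (-3.10 ± 0.89, adjusted p = 0.0393; lost in 7 of the leave-one-out fits, those without N1OE replicate 1, 3 or 4 or control replicate 1, 4, 7 or 8, at 0.0504 to 0.192). Limma-voom called 0 of the 7. Pluripotency markers, a list of 9, summed to at most 1.27, 1.35 and 1.01 CPM, and Pou5f1 was at 0 reads in all 23 libraries. Endothelial markers, a list of 6, summed to 5.16 to 38.3 CPM in controls, 41.4 to 85.0 in N1OE and 43.5 to 131 in N1KO. All controls lay below both modified groups, whose ranges overlapped. By limma 4 of the 6 (Cldn5, Pecam1, Emcn and Kdr) were called higher in N1KO and 2 (Kdr and Emcn) in N1OE. Without N1KO replicate 2 none of the 4 was called in N1KO (adjusted p = 0.195 to 0.253 with limma). Pecam1 was also lost there without N1KO replicate 1 or 3, and Kdr and Emcn were lost in 13 and 9 of the 16 leave-one-out fits. In N1OE Kdr kept its call in each of the 16, and Emcn lost it in 13, among them those without an N1OE library (0.0676 to 0.175). Fibro-adipogenic markers, a list of 6, summed to 166 to 9742 CPM in controls, 518 to 715 in N1OE and 4256 to 13601 in N1KO. Of these, Ly6a was called lower in N1OE against control (log2 fold change -4.30, limma adjusted p = 7.89e-05). It was also lower in N1OE against N1KO (-5.48, limma adjusted p = 1.07e-04) and kept both calls in each leave-one-out fit. In N1KO against control 0 of this list were called by limma or limma-voom, with 2 at an unadjusted p under 0.05. Schwann and glial markers, a list of 6, summed to 49.0 to 345 CPM in controls, 194 to 385 in N1OE and 88.4 to 711 in N1KO. Sox10, a transcription factor gene of neural crest and Schwann cells, was called higher in N1OE against control (99.2 beside 14.6 CPM on average, log2 fold change 3.13 ± 0.60, adjusted p = 0.00285 with limma) and kept its call in each leave-one-out fit. Macrophage and leukocyte markers, a list of 6, summed to 37.0 to 987 CPM in controls, 31.6 to 143 in N1OE and 148 to 912 in N1KO, and Cd68 was called lower in N1OE against control (-1.68 ± 0.41, adjusted p = 0.0169; 0.0555 without N1OE replicate 2 and 0.0561 without replicate 4; not called by limma-voom). In N1KO against control 0 of the neuronal, Schwann and macrophage markers were called by limma or limma-voom, with 1 of each list at an unadjusted p under 0.05. Satellite cell markers, a list of 12, had 3 called higher in N1OE (Megf10, Chrdl2 and Spry1) and 0 in N1KO against control, where 3 had an unadjusted p under 0.05 and limma-voom called 0. Without N1OE replicate 2 none of the 3 was called in N1OE (0.0577 to 0.135), and Megf10 and Spry1 were also lost without N1OE replicate 3 (0.0648 and 0.0536) and Spry1 without N1OE replicate 4 or control replicate 9 (0.0606 and 0.051). The part of other cells in the levels of the 4 genes was not tested.

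The genes whose log2 values ran most like a member's over the 23 libraries, among 14170 compared, are a description of shared group pattern. Npy1r, a neuropeptide Y receptor gene, and Sgsm1, a Rab GTPase regulator gene, were among the 5 most alike for Vat1l (r = 0.89 and 0.88), Otx2 (0.88 and 0.87) and Igsf23 (0.80 and 0.77). Npy1r stood at 9.60 to 20.02 CPM in N1OE, 0.322 to 3.85 in N1KO and at most 0.602 in re-isolated controls. For Igsf23 the most alike gene was Tbx3, a T-box transcription factor gene (r = 0.82), at 18.2 to 63.0 CPM in N1OE, 9.36 to 18.4 in N1KO and 0 to 10.1 in controls. Klf14 shared none of these: its most alike genes were Gimap9, a GTPase gene of the immune system (r = 0.92), the choline dehydrogenase gene Chdh, the anion transporter gene Slc26a8 (both 0.85), Fam71d (0.84) and the Bardet-Biedl gene Bbs9 (0.82). Gimap9 stood at 5.25 to 12.97 CPM in N1OE and 0.337 to 5.78 in N1KO, and at most 0.361 in re-isolated controls. The points share kit and setting.

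**Figure D4:**
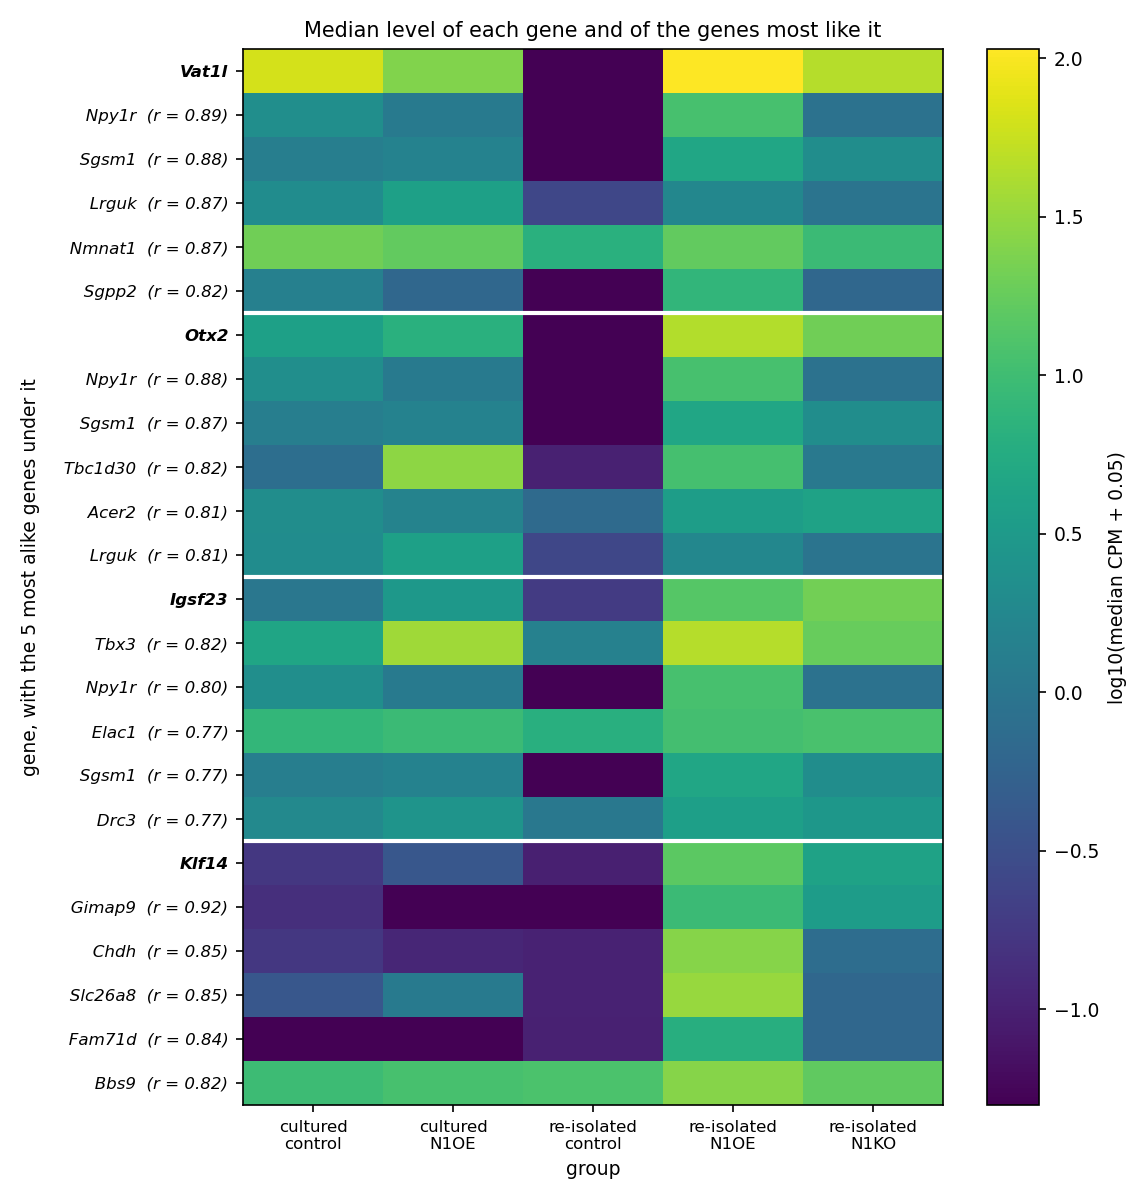
Median CPM in each group, as log10 of the median plus 0.05, for each member (bold) and the 5 genes with the highest Pearson r to it over the 23 libraries. The re-isolated control column is the darkest for Vat1l and Otx2, whose median there is 0, and Klf14 is the only member that is dark in all 3 columns on the left.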

How the data were processed

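The table deposited by the authors holds log2 CPM, to which a small prior count had been added, for 21264 genes in 23 libraries. The tools named in the submitters' processing notes are Trimmomatic 0.33 (trimming), FastQC, featureCounts (counting) and edgeR, with the mm10 build. The aligner and the gene annotation are not given in the sources used here. Since the values move in steps of whole reads, CPM and reads could be computed back (100% of low values whole within 0.05 reads). Libraries held 11637817 to 29154176 reads, so 3 reads stand for 0.103 to 0.258 CPM. Whether counts were adjusted before deposit is not stated.

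Groups came from the sample titles. A gene entered a fit when it reached 1 CPM in 3 or more of its libraries, and the deposited log2 values were tested with limma 3.58.1 (R 4.3.3; trend, two-sided, Benjamini-Hochberg over all genes tested, 0.05), cultured groups alone and the 3 re-isolated groups together. The fit was tested on simulated data. Members are tested in culture only. The exact test used scipy 1.17.1. Coordinates are from GENCODE M21 (GRCm38), where 21224 gene IDs matched.

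The members, lists and tests were chosen with earlier results of these data known. Named are the 4 members, 3 neighbours a side, the 5 most alike genes by r, up to 4 called genes a list and genes meeting the explicit reading, of which only some are printed. Alternatives were a pseudocount of 1, other filters, median ratio scaling, limma-voom, array weights, a replicate block, other control sets, 2-group fits and leaving out each library.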

Additional observations from a re-analysis of the deposited data

Results flagged for a closer look

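Dixon's criterion was applied to the 12 sets of member values that have 4 to 10 libraries. In 3 of them 1 library stood apart from the rest of its group. All 3 were re-isolated control replicate 6, at 1.63 CPM for Vat1l, 4.64 CPM for Otx2 and 1.27 CPM for Klf14. Its Igsf23 value of 1.87 CPM was also the highest of the controls but did not stand apart. The 3 flags fall on 1 library and are not independent. The criterion's usual rate of about 1 in 20 groups does not apply to these controls. Most of their values were 0 reads or 1 read, and they were used to choose the genes.

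For Vat1l the N1OE libraries lay on opposite sides of their control mean in the 2 settings. Every cultured N1OE library lay below the mean log2 value of the cultured controls, by -1.18 on average (interval -2.77 to 0.41, adjusted p = 0.265 with limma, not past the threshold; 2 of the 3 lay above control replicate 4), and every re-isolated N1OE library lay above that of the re-isolated controls. The difference was not tested, since the re-isolated contrast was used to choose the gene.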

How the results depend on the processing

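No member passed the threshold in culture, except Vat1l with array weights (-1.50, adjusted p = 0.0388) and with the replicate block (-1.63, adjusted p = 0.0231). The labels do not say whether same-numbered libraries were made together, though in culture their column headers also share a number. Same-numbered deviations had r of 0.002, 0.084 and 0.28 in culture and -0.15 to 0.15 among re-isolated groups. These correlations cannot decide it, and the Vat1l result in culture depends on whether libraries are blocked. No direction reversed.

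Leaving out 1 library at a time, the cultured log2 fold changes ran from -1.63 to -0.81 for Vat1l, 0.33 to 0.77 for Otx2, 1.22 to 1.89 for Igsf23 and 0.68 to 1.61 for Klf14. For N1OE against N1KO they ran from 1.02 to 1.82, 0.41 to 1.40, -0.77 to -0.08 and 1.22 to 2.40. Read ratios to controls ran from 603 to 7911 (Vat1l), 62.7 to 1523 (Otx2), 27.8 to 61.4 (Igsf23) and 86.1 to 748 (Klf14) in N1OE, and from 215 to 2565, 36.9 to 805, 42.5 to 72.2 and 25.0 to 169 in N1KO. Against marked controls they moved to 4932, 1899 and 622 (Vat1l, Otx2, Klf14) in N1OE and to 1599, 1004 and 140 in N1KO; against unmarked controls they were 417, 36.6 and 64.6, and 135, 19.4 and 14.5.

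Counts of called genes ran from 158 to 1765 in culture (main 1325), 465 to 1231 for N1OE against N1KO (1040), 562 to 1090 for N1OE against control (1000) and 12 to 108 for N1KO against control (93) with 1 library left out. Without both cultured libraries numbered 1, which leaves the suffix GoF on every control and on no N1OE library, the cultured count was 196. Array weights gave 3613 in culture, 2067 for N1OE against N1KO and 492 for N1KO against control; the fit of 2 groups gave 1608. The block gave 1601 in culture and 712 for N1OE against N1KO. For N1OE against control the block gave 445, marked controls 1627 and unmarked 2691. For N1KO against control a pseudocount of 1 gave 240, no filter 179, limma-voom 285, the block 61, marked controls 544 and unmarked 1008. The causes were not tested.

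Most controls held 0 to 2 reads of a member, so ratios there rest on few reads.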
